A study of Mus musculus with 10 samples.

Results

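Cytochrome P450 genes of families 1 to 4 were examined in jejunal epithelial cells of mice with and without induced loss of MYO5B. The members were all protein-coding genes whose symbol is Cyp, a family number from 1 to 4, a subfamily letter and a gene number, and 75 of the 35275 genes listed met this description. At least 1 read was found in 1 or more mice for 69 of the 75, and 6 (Cyp2a22, Cyp2b19, Cyp2b23, Cyp2g1, Cyp2j7 and Cyp3a57) had 0 reads in every mouse, which at a floor of 3 reads per library says only that they were not detectable at this depth. The 40 members with a mean of at least 0.1 FPKM (a read density that corrects for the length of the gene and the depth of the library) over the 10 mice were tested, and the other 29 with reads were below this level. Family 1 gave 1 tested member of 3, family 2 gave 24 of 48, family 3 gave 4 of 7 and family 4 gave 11 of 17.

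All 10 mice were labelled C57BL/6 (the study's methods give C57BL/6J) and carried VillinCreERT2, a tamoxifen-activated Cre recombinase driven by the villin promoter of intestinal epithelium, and floxed MYO5B alleles on both chromosomes. The 3 control mice (2, 4 and 5) received corn oil and kept MYO5B, the 4 MYO5B-knockout mice (3, 5, 6 and 7) received 2 mg of tamoxifen and a vehicle, and the 3 LPA-treated MYO5B-knockout mice (1, 4 and 5) received 2 mg of tamoxifen and 3 mg/kg of LPA, the signalling lipid lysophosphatidic acid. The epithelial cells were taken at day 4 from adult mice labelled as males, and no exact age is given in the labels. Tamoxifen differed between control and knockout mice together with MYO5B, so that effects of the drug and of MYO5B loss cannot be told apart. The description of LPA-treated mouse 1 names both the vehicle and LPA, and its group follows from its title. Titles of the LPA-treated mice begin with ipL, and the study writes ip for intraperitoneal, 1 of the routes by which it gave LPA.

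Reads on genes numbered from 10949420 to 24470409 per mouse. In each of 2 libraries, from control mouse 2 and MYO5B-knockout mouse 3, only 23 members had reads, against 42 to 64 in the other 8, and these detected 12242 and 12601 genes with 17.4% and 18.1% of reads on mitochondrial genes (17309 to 18267 genes and 1.98% to 3.50% elsewhere). Xist was at 8.41 and 15.1 FPKM, with 0 reads on 4 genes of the Y chromosome, in MYO5B-knockout mouse 3 and LPA-treated mouse 1, against the label of male mice. Counts are therefore given with and without these libraries. The enterocyte markers Fabp1, Fabp2, Alpi and 9 others were all above the filter, at a summed 15472 to 46617 FPKM per mouse.

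P450 enzymes are heme proteins, most of them bound to the endoplasmic reticulum, that insert an oxygen atom into drugs, steroids, fatty acids and other lipids with electrons passed on by P450 reductase and cytochrome b5. Families 1 to 3 handle mainly foreign compounds, with clear exceptions such as the arachidonic acid enzymes of the Cyp2c and Cyp2j subfamilies, and family 4 mainly hydroxylates the ends of fatty acids and eicosanoids. Small intestinal enterocytes hold a large P450 store outside the liver and meet ingested drugs and dietary lipids first. Many of these genes are controlled by ligand-activated receptors, among them the pregnane X receptor, the constitutive androstane receptor, the vitamin D receptor, the aryl hydrocarbon receptor and PPAR alpha.

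The members lie mostly in tandem clusters, in which neighbours are close in sequence. On chromosome 5 of GRCm38, Cyp3a57, Cyp3a16, Cyp3a44, Cyp3a11, Cyp3a25 and Cyp3a59 share a stretch from 145345279 to 146113285, whereas Cyp3a13 stands alone from 137892932 to 137921619, 7.85 Mb before the start of Cyp3a44. On chromosome 19, 14 Cyp2c genes lie between 39007019 and 40187333. Reads can be split between such neighbours. Of the 50-base stretches of their transcripts in GENCODE M21, 43.3% were shared with another gene for Cyp2c68, 26.8% for Cyp3a25, 26.5% for Cyp3a44, 20.6% for Cyp2c65, 19.5% for Cyp2c66, 17.4% for Cyp4f16, 8.70% for Cyp2b10, 6.73% for Cyp3a11, 1.13% for Cyp2c55 and 0 for Cyp3a13. Values of the first 6 of these genes are accordingly less certain than those of Cyp2c55 or Cyp3a13. The same holds for Cyp2a4 (38.8%), Cyp2a5 (37%), Cyp2c37 (30.1%), Cyp4a10 (29.8%), Cyp2c54 (25.7%), Cyp2d9 (21.8%) and Cyp2c50 (18.3%).

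Promoter sequences are shown for 5 members, and not for the called members Cyp2c68, Cyp4f13 and Cyp2u1. limma on the deposited FPKM of all mice called Cyp2c55 and Cyp3a25 in both comparisons with control mice, and Cyp2b10 and Cyp3a13 in that of LPA-treated mice. Cyp3a11, not called in this fit but called by edgeR and DESeq2, was the most abundant member in 2 control mice. RefSeq promoters of 300 bases (250 before to 50 after a start, GRCm38.p6) were found for 62 of the 75 members, and each is written 5′ to 3′ on the gene's strand. Capitals mark AGGTCA and AGTTCA, hexamers that nuclear receptors bind, on either strand (TGACCT and TGAACT where reversed).
Cyp2c55, chr19:39006769-39007068, plus strand: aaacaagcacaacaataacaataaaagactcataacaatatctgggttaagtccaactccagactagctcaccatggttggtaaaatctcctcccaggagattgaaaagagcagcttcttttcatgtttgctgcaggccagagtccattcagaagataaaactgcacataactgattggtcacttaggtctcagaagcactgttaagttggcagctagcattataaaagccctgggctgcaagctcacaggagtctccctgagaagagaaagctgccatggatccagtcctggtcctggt
Cyp2b10, chr7:25897408-25897707, plus strand: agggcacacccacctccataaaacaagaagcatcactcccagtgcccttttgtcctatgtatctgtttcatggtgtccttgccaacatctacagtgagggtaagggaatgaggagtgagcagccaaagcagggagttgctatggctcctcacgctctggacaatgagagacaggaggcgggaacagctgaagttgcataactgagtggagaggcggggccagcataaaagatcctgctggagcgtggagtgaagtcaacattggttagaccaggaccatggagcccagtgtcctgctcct
Cyp3a25, chr5:146009569-146009868, minus strand: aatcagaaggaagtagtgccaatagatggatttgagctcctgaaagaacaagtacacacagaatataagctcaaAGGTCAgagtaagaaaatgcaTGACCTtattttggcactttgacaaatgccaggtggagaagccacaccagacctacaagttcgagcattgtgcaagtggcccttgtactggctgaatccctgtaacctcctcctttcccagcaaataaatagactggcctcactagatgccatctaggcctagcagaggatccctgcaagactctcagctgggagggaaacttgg
Cyp3a11, chr5:145879805-145880104, minus strand: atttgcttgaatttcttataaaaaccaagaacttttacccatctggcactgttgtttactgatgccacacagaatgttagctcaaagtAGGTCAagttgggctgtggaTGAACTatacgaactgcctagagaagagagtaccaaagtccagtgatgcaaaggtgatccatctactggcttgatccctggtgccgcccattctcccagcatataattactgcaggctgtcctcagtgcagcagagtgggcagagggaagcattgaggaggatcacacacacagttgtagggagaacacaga
Cyp3a13, chr5:137921570-137921869, minus strand: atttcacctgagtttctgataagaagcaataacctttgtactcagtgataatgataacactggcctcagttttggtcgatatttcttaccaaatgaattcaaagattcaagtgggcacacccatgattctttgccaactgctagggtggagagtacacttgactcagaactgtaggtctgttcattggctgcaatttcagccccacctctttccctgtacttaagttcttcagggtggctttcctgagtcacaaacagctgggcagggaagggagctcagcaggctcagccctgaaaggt
The RefSeq starts of Cyp3a11 and Cyp2b10 lie 110 and 38 bases from those listed with the FPKM, and the other 3 starts are the same. Cyp3a25 and Cyp3a11 each held 2 such hexamers, and the windows of Cyp3a13, Cyp2c55 and Cyp2b10 held 0. Of the called members not shown, Cyp2c68 held 0 and Cyp4f13 held 1. Either hexamer was present in 26 of the 62 member promoters (41.9%) and in 27.7% of all 32851 promoters in the table, and for the tested members it was 11 of 34 (32.4%). TATAAA was present in 27 of the 62 (43.5%; 16 of the 34 tested, 47.1%) against 13.6% of all promoters, and GCGTG, the core bound by the aryl hydrocarbon receptor, in 12 (19.4%; 7 of the 34 tested, 20.6%) against 32.4%, each on either strand. These are matches of letters within the windows and not sites shown to be bound. Each member entered with only the start nearest to that listed with the FPKM, whereas every listed start entered the shares of all promoters.

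In control mice the P450 level was spread over several genes, and in knockout mice Cyp3a13 led it. Summed over the 75 members, control mice 2, 4 and 5 held 1228.5, 3799 and 3280 FPKM. MYO5B-knockout mice 3, 5, 6 and 7 held 943, 1437, 1443 and 1224 FPKM, and LPA-treated mice 1, 4 and 5 held 1550, 2646 and 1659 FPKM. Control mice 4 and 5 were above all others, and control mouse 2, with few genes detected, lay among the knockout mice. Cyp3a13, a Cyp3a enzyme of the intestine, made up 19.4%, 14.1% and 9.98% of this sum in control mice, 68.1%, 51.3%, 43.3% and 36.2% in MYO5B-knockout mice and 53.4%, 64.5% and 73.5% in LPA-treated mice. The shares of control and knockout mice did not overlap, and Cyp3a13 was the most abundant member in all 7 knockout libraries. In control mice 4 and 5 the first place was held by Cyp3a11 and in control mouse 2 by Cyp4f14. In bulk samples, fewer cells that make a transcript and less of it per cell cannot be told apart.

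**Figure D1:**
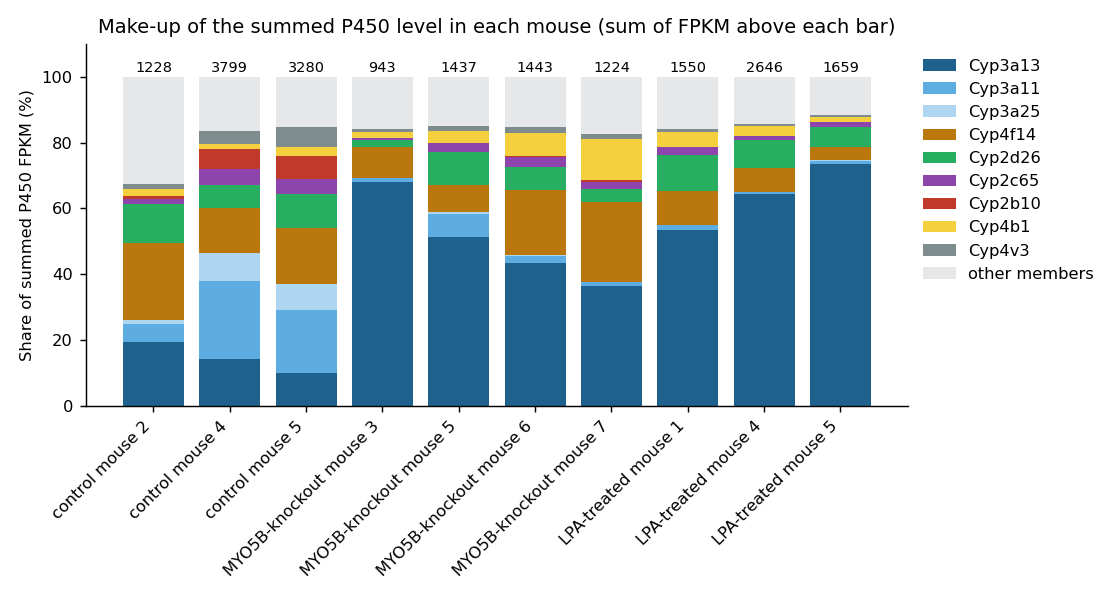
Make-up of the summed FPKM of the 75 P450 genes in each of the 10 mice, as stacked shares in percent (y axis) with the sum above each bar. Cyp3a13 takes 9.98% to 19.4% in control mice and 36.2% to 73.5% in knockout mice, where the bands of Cyp3a11, Cyp3a25 and Cyp2b10 are thin.

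To ask how P450 expression differed after induced loss of MYO5B, MYO5B-knockout mice were compared with control mice. Cyp2c55, Cyp3a25, Cyp2c68 and Cyp4f13 were lower and passed limma's test at an adjusted p of 0.05, which is 4 of the 40 tested members (10%), whereas 0.884% of the 15729 genes tested were called lower. No member was called higher, against 1.13% of all genes. In 12 of the 40 (30%) every knockout mouse lay below every control mouse, which held for 6.20% of all genes, and in 1 (2.5%) every knockout mouse lay above, against 11.0%. The median log2 fold change of the 40 was -0.80, and that of all genes was 0.29. At an unadjusted p under 0.05, 16 members differed, 15 of them lower, and the share of all genes at this level is not given here. With control mouse 2 and MYO5B-knockout mouse 3 left out the number called was 14, all lower and including the same 4, against 2.38% of all genes called lower. edgeR on the recovered reads called 8, all lower, against 1.68% of all genes, and DESeq2 called 15 lower and 1 higher, against 6.52% and 5.11%. When LPA-treated mouse 1 was also left out the count stayed at 14 lower, against 3.16%. Without the 2 libraries with Xist and no Y reads it was 3, against 0.744%, and Cyp3a25 was the member lost (log2 fold change -5.34, limma adjusted p = 0.0705). Leaving out control mouse 2 alone gave 9 called members, leaving out MYO5B-knockout mouse 3 gave 3, MYO5B-knockout mouse 5 or LPA-treated mouse 5 gave 2, and any of the other 6 mice gave 1. The shares of all genes called in these fits are not given here.

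**Figure D2:**
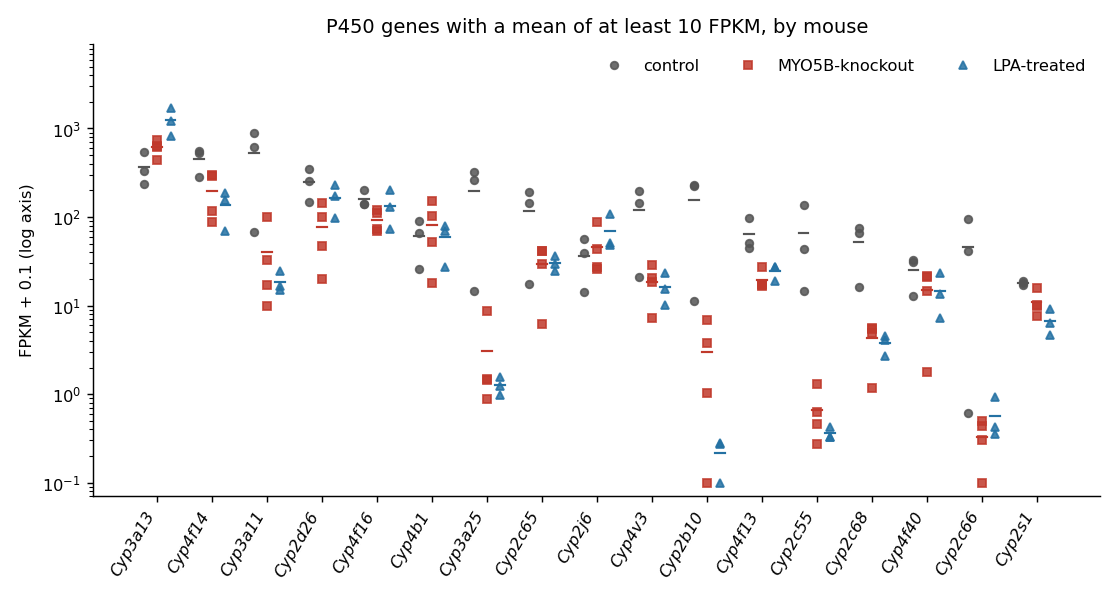
FPKM + 0.1 on a log axis for the 17 members with a mean of at least 10 FPKM, 1 point per mouse, with bars at the group means (3 control, 4 MYO5B-knockout and 3 LPA-treated mice). In Cyp3a25, Cyp2b10, Cyp2c55, Cyp2c68, Cyp2c66 and Cyp3a11 the knockout means lie far below the control mean, control mouse 2 is the lowest control point in each of these, and Cyp3a13 is highest in LPA-treated mice.

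The Cyp2c subfamily, whose intestinal members oxidise arachidonic acid and other lipids, had 8 tested members, all with negative log2 fold changes from -6.29 to -0.12 in this comparison, while 36.6% of all genes had a negative value. Cyp2c55 (ENSMUSG00000025002, chromosome 19 from 39007019 to 39042693) was at 14.4, 137 and 43.9 FPKM in controls 2, 4 and 5, and at 0.366, 1.19, 0.172 and 0.533 FPKM in MYO5B knockouts 3, 5, 6 and 7. On the log scale the gap between the groups exceeded the whole spread within either, although control mice 2 and 4 differed widely. It fell by 6.29 on the log2 scale of FPKM + 0.1 (standard error, SE, 0.75, limma adjusted p = 0.00393) and passed in each of the 10 fits that left out 1 mouse. Cyp2c68 was at 16.1, 65.8 and 74.4 FPKM in controls and at 1.06, 5.48, 5.36 and 4.78 FPKM in MYO5B knockouts, so that again no knockout mouse reached a control mouse. Its log2 fold change was -3.57 (SE 0.67, limma adjusted p = 0.0283), and the call held when control mouse 2 or MYO5B-knockout mouse 3 was left out and was lost when any of the other 8 was (adjusted p up to 0.132 over all alternatives).

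Cyp2c66, Cyp2c65 and Cyp2c29 had lower group means too but did not pass in limma on the deposited FPKM of all mice. With all mice DESeq2 called each of them lower (adjusted p = 1.36e-10, 0.00506 and 0.0126). Cyp2c66 also passed in edgeR (adjusted p = 0.0136) and in limma under median-ratio scaling (0.0394) and quantile normalization (0.0297). Cyp2c66, an intestinal arachidonic acid enzyme, was at 0.511, 95.5 and 41.1 FPKM in controls and at 0, 0.393, 0.332 and 0.20 FPKM in MYO5B knockouts. Control mouse 2 was close to the knockout mice and the other 2 control mice far above them, with a log2 fold change of -5.57 (SE 1.44, limma adjusted p = 0.0754) that became -7.29 (adjusted p = 0.00211) without the 2 libraries with few genes. Cyp2c65, its near neighbour, was at 17.7, 192 and 145 FPKM in controls and 6.16, 41.0, 41.2 and 29.1 FPKM in MYO5B knockouts, with the same control mouse inside the knockout range. Its log2 fold change was -1.75 (SE 0.85, limma adjusted p = 0.318) with all mice and -2.19 (adjusted p = 0.00861) without the 2 libraries. Cyp2c29, a target of the constitutive androstane receptor in liver, was at 0, 20.5 and 5.30 FPKM in controls and at most 0.534 FPKM in any MYO5B-knockout mouse (log2 fold change -2.74, SE 1.46, limma adjusted p = 0.366, or -5.16 with an adjusted p of 0.0216 without the 2 libraries). The summed level of the 15 Cyp2c genes was 48.6, 513.5 and 312 FPKM in controls and 8.44, 48.9, 47.3 and 36.7 FPKM in MYO5B knockouts.

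Within the Cyp3a subfamily, the enzymes of broadest drug range, the clustered genes and Cyp3a13 had log2 fold changes of opposite sign, the latter without passing. Cyp3a25 (ENSMUSG00000029630, chromosome 5 from 145977194 to 146009618) was at 14.4, 323 and 260.3 FPKM in controls and at 0.776, 8.53, 1.39 and 1.33 FPKM in MYO5B knockouts, without overlap. The fall of 5.73 on the log2 scale (SE 1.06, limma adjusted p = 0.0274) passed without control mouse 2 or without MYO5B-knockout mouse 5 and was lost without any of the other 8 mice. Cyp3a11, the main inducible Cyp3a enzyme of mouse liver and gut, was at 68.3, 901 and 623 FPKM in controls and at 9.90, 101, 32.9 and 17.0 FPKM in MYO5B knockouts. Its lowest control value lay below the highest knockout value, and its log2 fold change of -3.62 (SE 0.92, limma adjusted p = 0.0713) became -4.28 (adjusted p = 0.0216) without the 2 libraries with few genes. Cyp3a44 had a log2 fold change of -2.33 at 0.323 to 2.56 FPKM in controls. Cyp3a59, below the filter, shared 30% of its transcript stretches with another gene, and 26.8% with Cyp3a25. It had reads in control mice 4 and 5 at 0.422 and 0.286 FPKM and at most 0.0444 FPKM in any knockout mouse. Whether these reads came from Cyp3a25 was not tested. Cyp3a13 in contrast was at 238, 537 and 327 FPKM in controls and at 642, 737, 625 and 444 FPKM in MYO5B knockouts. The ranges overlapped through control mouse 4 and MYO5B-knockout mouse 7, and the log2 fold change of 0.79 (SE 0.37, limma adjusted p = 0.300) did not pass and was 0.49 without the 2 libraries.

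Of the other family 2 genes, Cyp2b10, the classical target of the constitutive androstane receptor, was at 11.1, 223 and 229.7 FPKM in controls and at 0, 0.938, 3.70 and 6.85 FPKM in MYO5B knockouts. All knockout mice lay below all control mice, and the log2 fold change was -6.01 (SE 1.45, limma adjusted p = 0.0631), or -6.23 (adjusted p = 0.0125) without the 2 libraries with few genes. Cyp2d22, one of the mouse genes of the debrisoquine hydroxylase subfamily, was at 6.34, 19.7 and 20.8 FPKM in controls and 0.527, 1.36, 4.89 and 3.10 FPKM in MYO5B knockouts (log2 fold change -2.83, SE 0.73, limma adjusted p = 0.0754). Its neighbour Cyp2d26, at 147, 256 and 346 FPKM in controls, was at 20, 144, 101 and 46.4 FPKM in MYO5B knockouts, again without overlap. It did not pass in limma (log2 fold change -1.95, SE 0.63, limma adjusted p = 0.137) but did in DESeq2 (adjusted p = 0.00121). Cyp2u1, a fatty acid hydroxylase, and Cyp2s1, a P450 of epithelial surfaces, also lay lower in every knockout mouse, with log2 fold changes of -1.98 (SE 0.63) and -0.78 (SE 0.33). Cyp2d9 was the 1 tested member in which every knockout mouse lay above every control mouse, at 0.0806 to 1.12 FPKM against at most 0.0393 FPKM, a level of few reads (log2 fold change 2.14, SE 0.65, limma adjusted p = 0.120).

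Not all lipid-oxidising family 2 genes lay lower. Cyp2j6, an intestinal arachidonic acid epoxygenase, was at 14.1, 38.8 and 57.0 FPKM in controls and 26.9, 88.6, 43.6 and 26.0 FPKM in MYO5B knockouts, and the groups overlapped, although control mouse 2 lay below and MYO5B-knockout mouse 5 above all mice of the other group (log2 fold change 0.37, SE 0.57, limma adjusted p = 0.780). The 4 tested Cyp2j genes ranged from -0.48 to 1.36. Cyp2r1, the vitamin D 25-hydroxylase, was at 0 to 0.639 FPKM in controls and 0 to 0.962 FPKM in MYO5B knockouts, with 0 in the 2 libraries with few genes.

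In family 4, the enzymes that hydroxylate fatty acids and leukotrienes at the chain end, Cyp4f13 (ENSMUSG00000024055, chromosome 17 from 32924688 to 32947402) was at 98.2, 45 and 51.4 FPKM in controls. It was at 27.3, 17.3, 16.4 and 17.2 FPKM in MYO5B knockouts, with no overlap. The fall of 1.67 on the log2 scale (SE 0.33, limma adjusted p = 0.0376) kept its call only without MYO5B-knockout mouse 3 among the 10 fits that left out 1 mouse, and the adjusted p was 0.0621 under median-ratio scaling and 0.0508 in edgeR. Cyp4f14, the second most abundant member, hydroxylates leukotriene B4 and vitamin E. It was at 286, 528 and 559 FPKM in controls and at 88.9, 117, 289 and 296 FPKM in MYO5B knockouts, a range that reached just past the lowest control mouse (log2 fold change -1.35, SE 0.52, limma adjusted p = 0.216). Cyp4v3, a fatty acid hydroxylase, was at 20.8, 143 and 196 FPKM in controls and 7.17, 20.4, 28.3 and 18.2 FPKM in MYO5B knockouts. Here too control mouse 2 fell into the knockout range, and the log2 fold change of -2.33 (SE 0.74, limma adjusted p = 0.134) was -2.93 (adjusted p = 0.0121) without the 2 libraries.

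The other abundant or well-known family 4 genes did not pass. Cyp4b1, which oxidises fatty acids and several protoxins, was at 25.7, 65.7 and 89.3 FPKM in controls and 18.0, 52.5, 102 and 151 FPKM in MYO5B knockouts (log2 fold change 0.22, SE 0.72). Cyp4f16 lay lower in every knockout mouse, at 69.7 to 119 FPKM against 140.3 to 204 FPKM in controls, and did not pass (log2 fold change -0.82, SE 0.37, limma adjusted p = 0.288). Cyp4a10 and Cyp4a14, fatty acid hydroxylases that PPAR alpha induces in liver, stayed low in every group. Cyp4a10 was at 0, 1.54 and 2.87 FPKM in controls and at 0, 0.605, 0.812 and 0.378 FPKM in MYO5B knockouts, and Cyp4a14 had 0 reads in all control mice. Cyp4f18 was at 11.1 FPKM in control mouse 2 and at most 2.12 FPKM in any other mouse. Cyp4f18 overlaps Zfp961 on the opposite strand, and Zfp961 as a whole had 464% as many reads. Of the transcript stretches of Cyp4f18, compared as for the genes above, only 4.81% were shared with Zfp961. No strand of the counting is stated, so reads in this shared part cannot be assigned to either gene. How many reads of Cyp4f18 lie there was not tested.

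Family 1, the targets of the aryl hydrocarbon receptor, was low and uneven. Cyp1a1, which oxidises polycyclic aromatic compounds, was at 2.80, 5.36 and 4.01 FPKM in controls and at 0, 0, 0.243 and 0.288 FPKM in MYO5B knockouts. The groups did not overlap, but the log2 fold change of -4.40 (SE 1.51, limma adjusted p = 0.164) did not pass. In LPA-treated mice Cyp1a1 was at 0, 0 and 14.2 FPKM, and mouse 5 alone thus held more than any control mouse. Without LPA-treated mouse 5 the difference between MYO5B-knockout and control mice passed (limma adjusted p = 0.0222). Cyp1a2 and Cyp1b1 reached at most 0.24 and 0.132 FPKM in any mouse.

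**Figure D3:**
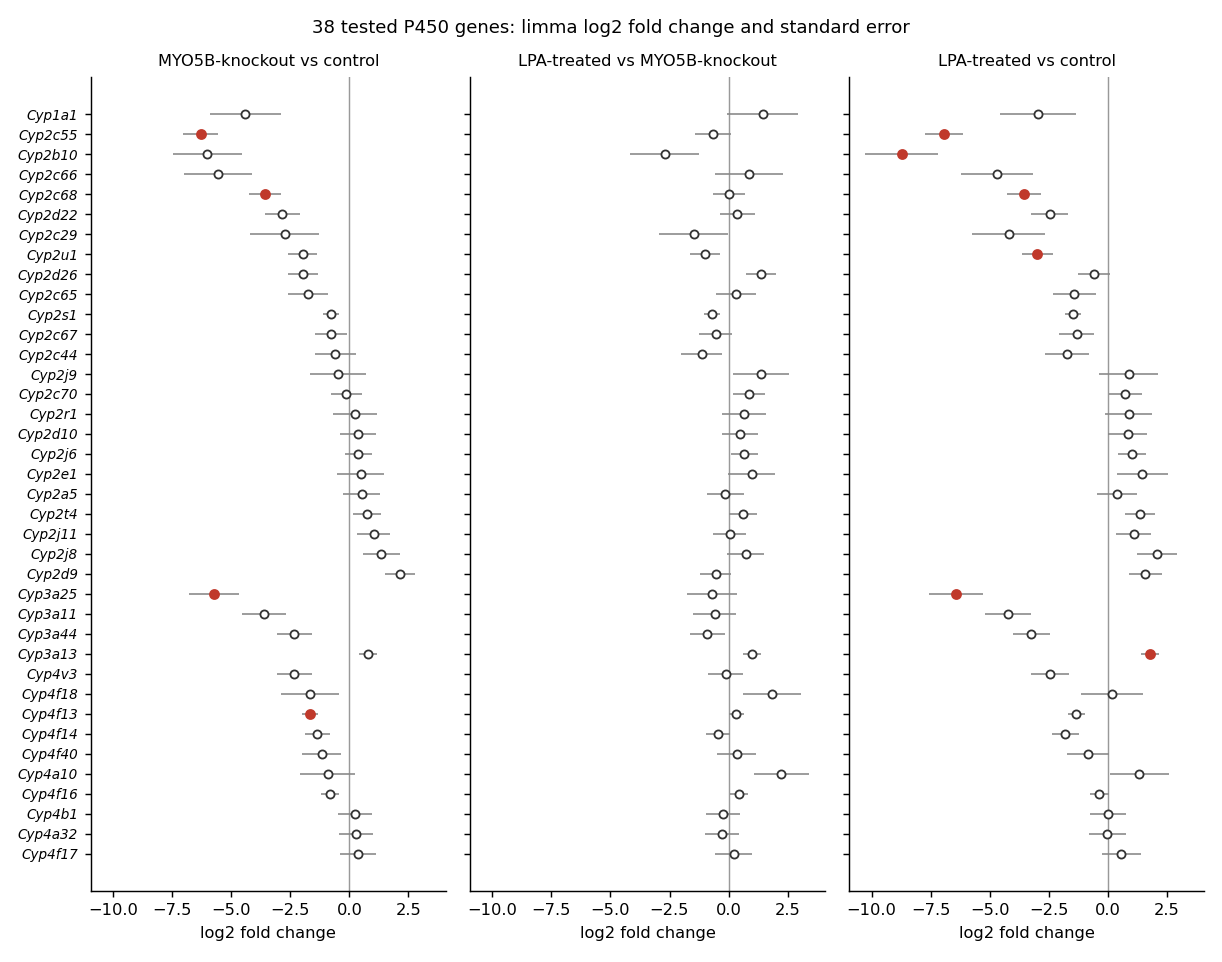
log2 fold changes with their standard errors of the 38 tested members that had reads in control mice, in the 3 comparisons, ordered within each family by the value in MYO5B-knockout against control mice. Filled red points passed an adjusted p of 0.05: 4 on the left, 0 in the middle and 6 on the right.

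To ask whether LPA altered P450 expression in knockout mice, LPA-treated mice were compared with MYO5B-knockout mice that had received the vehicle. limma called 0 of the 40 members, as it did 0 of all genes (0%), and edgeR and DESeq2 on the recovered reads also called 0 members (DESeq2 called 0.0381% of all genes higher and 0.00636% lower). limma without the 2 libraries with few genes called 0. For unadjusted p no share of all genes is given here. At an unadjusted p under 0.05, 1 member differed in limma, 4 in edgeR and 7 in DESeq2. The 1 member was Cyp3a13, at 828, 1706 and 1220 FPKM under LPA 1, 4 and 5 against 444 to 737 FPKM in MYO5B knockouts. All LPA-treated mice lay above all vehicle mice, as in 3.56% of all genes, with a log2 fold change of 0.99 (SE 0.37, limma adjusted p = 1). Cyp2c44 was the 1 member in which all LPA-treated mice lay lower, at 0.0382 to 0.125 FPKM against 0.150 to 0.465 FPKM, as in 0.604% of all genes.

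The members that lay far below control mice in MYO5B-knockout mice were also low with LPA. Cyp2c55 was at 0.328, 0.232 and 0.226 FPKM under LPA, Cyp3a25 at 0.879, 1.47 and 1.13 FPKM, Cyp3a11 at 24.2, 15.0 and 16.4 FPKM and Cyp2c68 at 3.98, 4.46 and 2.61 FPKM. Each of these ranges overlapped that of the MYO5B-knockout mice. Cyp2b10 was at 0.171, 0.181 and 0 FPKM, from 8, 6 and 0 reads, against 0, 31, 145 and 296 reads in MYO5B-knockout mice, and its log2 fold change of -2.71 had a standard error of 1.45. Cyp4a10, at 3.51, 2.33 and 0.783 FPKM, had the highest log2 fold change of the 40 at 2.24 (SE 1.17, limma adjusted p = 1), with overlap through LPA-treated mouse 5. Cyp2d26, at 174, 227 and 97.0 FPKM, followed at 1.37 (SE 0.63) among the abundant members and overlapped through the same mouse. The median log2 fold change was 0.13 for the 40 and 0.11 for all genes.

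LPA-treated mice were also compared with the control mice, which the first comparison shares. Of the 40 members 5 were called lower (12.5%), against 0.776% of all genes, and Cyp3a13 was called higher, against 1.54%. The 5 were Cyp2b10, Cyp2c55, Cyp3a25, Cyp2c68 and Cyp2u1. In 11 (27.5%) all LPA-treated mice lay below all control mice, against 6.38% of all genes, and in 4 (10%) all lay above, against 20.5%. With control mouse 2 and MYO5B-knockout mouse 3 left out the count was 16 lower and 0 higher, against 4.25% and 4.31% of all genes, and it was 17 lower and 1 higher, against 6.08% and 6.00%, when LPA-treated mouse 1 was left out as well. Without the 2 libraries with Xist and no Y reads it was 4 lower, against 0.566%: Cyp2b10, Cyp2c55, Cyp2c68 and Cyp2s1. edgeR called 8 lower, against 1.25%, and DESeq2 16 lower and 1 higher, against 5.28% and 4.18%. Leaving out control mouse 2 alone gave 11 called members and MYO5B-knockout mouse 3 gave 9, whereas control mouse 4, control mouse 5, LPA-treated mouse 1 or LPA-treated mouse 4 gave 1, LPA-treated mouse 5 gave 2, and MYO5B-knockout mouse 6 or 7 gave 3. For these fits too the shares of all genes called are not given.

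Cyp2b10 differed most, with a log2 fold change of -8.72 (SE 1.55, limma adjusted p = 0.0193), and the call was lost when control mouse 4, control mouse 5 or any LPA-treated mouse was left out. The size depended on the constant added to FPKM. It was -6.26 with 1 FPKM, and -10.21 with 0.01 FPKM, where the call was lost (limma adjusted p = 0.0584). Cyp2c55 fell by 6.95 on the log2 scale (SE 0.80, limma adjusted p = 0.00279) and passed in each of the 10 fits that left out 1 mouse. Cyp3a25 fell by 6.43 (SE 1.13, limma adjusted p = 0.0188), and its call too was lost without control mouse 4, control mouse 5 or any LPA-treated mouse. Cyp2c68 fell by 3.54 (SE 0.71, limma adjusted p = 0.0340). Cyp2u1, at 0.544, 2.12 and 2.77 FPKM in controls and 0.0701, 0.198 and 0.0644 FPKM under LPA, fell by 2.98 (SE 0.67, limma adjusted p = 0.0482). The Cyp2u1 call was kept only without control mouse 2 or MYO5B-knockout mouse 3, and that of Cyp2c68 also without MYO5B-knockout mouse 5.

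Cyp3a13 was the 1 member called higher in the limma comparisons given here, and DESeq2 also called Cyp2d9 higher in MYO5B-knockout than in control mice (log2 fold change 4.23, adjusted p = 0.0213). Every LPA-treated mouse lay above every control mouse, the closest being 828 against 537 FPKM, and the log2 fold change was 1.79 (SE 0.40, limma adjusted p = 0.0477). The call was kept without MYO5B-knockout mouse 3 and lost without any of the other 9 mice, and it was lost under median-ratio scaling (log2 fold change 1.41, adjusted p = 0.134), which moved the median of all genes from 0.41 to 0.10, so that the value relative to that median moved little. edgeR gave an adjusted p of 0.118 and DESeq2 0.00978. Cyp3a11 (log2 fold change -4.21, SE 0.98, limma adjusted p = 0.0559), Cyp3a44 (-3.24, SE 0.79) and Cyp4f14 (-1.79, SE 0.56) were lower in every LPA-treated mouse without passing in limma on the deposited FPKM of all mice. DESeq2 gave them adjusted p of 1.56e-08, 9.98e-05 and 0.00136, and edgeR 0.0192, 0.0642 and 0.0706. In limma without the 2 libraries with few genes they were 0.00642, 0.00538 and 0.0525. Cyp2s1, at 8.95, 4.61 and 6.24 FPKM against 16.8 to 18.8 FPKM in controls, had an adjusted p of 0.0616 in limma and of 0.0291 without the 2 libraries with few genes.

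Some members had reads in few mice. In MYO5B-knockout mouse 7 reads were found for 17 members that had none in the other 3 MYO5B-knockout mice, and 13 of these also had none in the control mice. The 17 had 1 to 77 reads each in this mouse, 185 in all, or 0.273% of its reads on members. They included Cyp2a4, a steroid hydroxylase (1.99 FPKM), Cyp2a5, the coumarin hydroxylase (0.749 FPKM), and the Cyp2c genes Cyp2c37, Cyp2c50 and Cyp2c54. Of the 13, 12 also had reads in LPA-treated mouse 4 or 5, and 1 had reads in LPA-treated mouse 1. Cyp2e1, the ethanol-oxidising P450 of liver, was at 1.38, 0.917 and 1.11 FPKM in these 3 mice and at most 0.250 FPKM in the other 7.

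Of 7 hepatocyte markers, Alb, Ahsg and Fgb were highest in the same 3 mice. Alb was at 47.8 FPKM in MYO5B-knockout mouse 7, 8.74 FPKM in LPA-treated mouse 4 and 10.6 FPKM in LPA-treated mouse 5, and at most 0.227 FPKM in the other 7. Summed over the 7 markers, these 3 mice held 82.3, 19.0 and 28.1 FPKM and the others 3.13 to 9.46 FPKM, and Fgb had 0 reads in the other 7. Serpina1c was also highest in LPA-treated mice 4 and 5 but not in MYO5B-knockout mouse 7. Apoh, Ttr and Apoa2 did not separate these mice, with Apoh highest in control mouse 2 (3.42 FPKM against 1.86, 0.631 and 1.14 FPKM in the 3 mice), Ttr at 3.90 FPKM in MYO5B-knockout mouse 5 and Apoa2 at 5.73 FPKM in control mouse 5 against 4.46 FPKM in LPA-treated mouse 4. Whether the markers and these P450 genes share a source was not tested. Cyp2a4 and Cyp4a14 had 0 reads in all control mice, so no fold change is given for them, and without both the median log2 fold change of the members was -0.86 in MYO5B-knockout and -0.71 in LPA-treated mice against control mice.

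**Figure D4:**
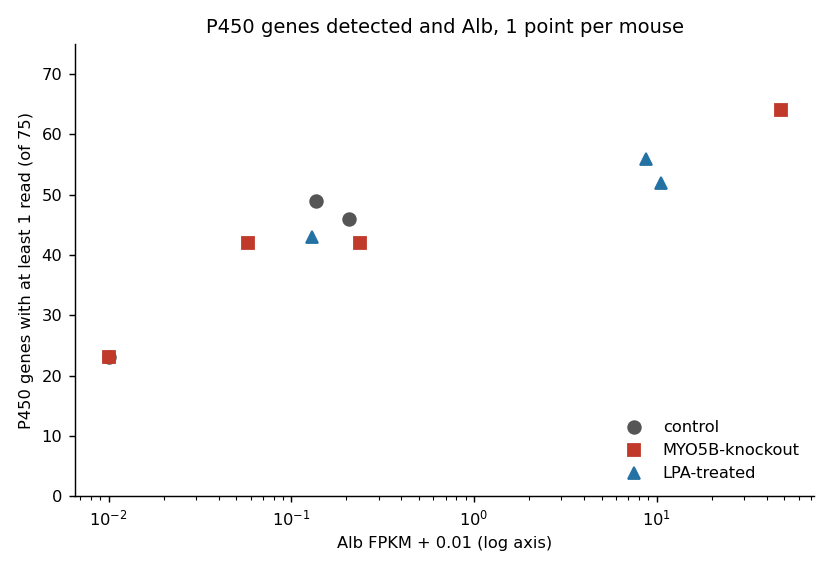
Number of the 75 P450 genes with at least 1 read (y axis) against Alb FPKM + 0.01 on a log axis, 1 point per mouse, in which control mouse 2 and MYO5B-knockout mouse 3 coincide at 23 genes and 0 FPKM. The 3 mice with 8.74 to 47.8 FPKM of Alb have 52 to 64 genes with reads, and the other 7 have 23 to 49.

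Genes that work with P450 enzymes were also examined. Among 6 electron donors and partners 0 passed in limma in any of the 3 comparisons. P450 reductase, encoded by Por, was at 56.5, 157 and 153 FPKM in controls and 98.3, 267, 212 and 212 FPKM in MYO5B knockouts (log2 fold change 0.74, SE 0.48). Cyb5r3, the cytochrome b5 reductase, was at 445, 413 and 386 FPKM in controls and 208, 207, 226 and 219.6 FPKM in MYO5B knockouts, without overlap (log2 fold change -0.94, limma adjusted p = 0.0568). Without the 2 libraries with few genes, Cyb5a, Cyb5r3 and Pgrmc1 passed, all lower. Of 8 genes of heme synthesis and 4 of heme breakdown 0 passed in any comparison, and the median log2 fold changes of these lists between MYO5B-knockout and control mice were -0.24 and 0.58, beside 0.29 for all genes.

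Of 10 receptors and partners that regulate P450 genes, 1 passed between MYO5B-knockout and control mice. Vdr, the vitamin D receptor, was at 54.4, 69.5 and 65.1 FPKM in controls and 11.7, 18.2, 27.5 and 28.9 FPKM in MYO5B knockouts, with no overlap. It fell by 1.62 on the log2 scale (SE 0.36, limma adjusted p = 0.0485), passed in 1 of the 10 fits that left out 1 mouse, and fell by 1.90 in LPA-treated against control mice (SE 0.38, limma adjusted p = 0.0326; 4 of 10). Nr1i2, the pregnane X receptor, was at 27.3, 58.5 and 70.9 FPKM in controls and 26.4, 46.6, 46.4 and 41.6 FPKM in MYO5B knockouts (log2 fold change -0.30, limma adjusted p = 0.715). Nr1i3, the constitutive androstane receptor, was at 0.243, 13.6 and 15.4 FPKM in controls and 0, 12, 10.7 and 8.54 FPKM in MYO5B knockouts (log2 fold change -0.36, limma adjusted p = 0.942). Control mouse 2 and MYO5B-knockout mouse 3 were thus the low mice for this gene in their groups.

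Other targets of the same receptors were also counted. Of 4 tested targets of the aryl hydrocarbon receptor outside the P450 genes 0 passed in any comparison. Of 13 tested targets of PPAR alpha 7 had negative values between MYO5B-knockout and control mice, among them Vnn1 (-3.04), Acaa1b (-1.83, or -3.31 with a limma adjusted p of 0.0403 without the 2 libraries with few genes) and Ehhadh (-0.87), and none of these 3 passed with all mice. Acot1, an acyl-CoA thioesterase, was higher in MYO5B-knockout than in control mice by 3.15 on the log2 scale (SE 0.57, limma adjusted p = 0.0267). It passed in 4 of the 10 fits that left out 1 mouse. Acot1 and Acot2, a related thioesterase, were also higher in LPA-treated than in control mice. In LPA-treated against MYO5B-knockout mice neither of these passed. The median log2 fold change of the 13 in that comparison was 1.21, beside 0.11 for all genes, and was 0.81 without the 2 libraries with few genes. The P450 members controlled by PPAR alpha in liver did not pass in any comparison, with Cyp4a10 at -0.91, 2.24 and 1.33 in the 3 comparisons.

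Cell type markers also differed between the groups, and their part in the P450 results was not tested. Of 9 leukocyte markers 8 were tested. Cd79a and Cd52 fell in MYO5B-knockout mice, 7 of the 8 had negative values, and the summed level of the 9 was 363, 860 and 773 FPKM in controls and 27.8, 20.6, 81.8 and 273 FPKM in MYO5B knockouts. H2-Aa alone made up most of the control sums. It was at 293, 809 and 714 FPKM in controls and 10.4, 10.8, 65.8 and 246 FPKM in MYO5B knockouts, and did not pass (limma adjusted p = 0.0745). The sum therefore follows mainly this gene. Of the 12 enterocyte markers 0 passed between MYO5B-knockout and control mice, with a median of -0.58 and 7 negative values. All 8 proliferation markers had positive values with a median of 1.21 and 0 passed. Of 6 general epithelial markers, Krt18 and Krt19 were higher in LPA-treated than in control mice. Of 4 markers of the proximal small intestine Cybrd1 was higher in both comparisons with control mice, and 0 of 3 ileum and 0 of 8 tested stromal and endothelial markers passed.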

How the data were processed

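The authors deposited FPKM for every gene, made per the labels and the submitters' processing notes from poly-A selected libraries on GRCm38 (mm10) with STAR 2.5, TopHat, HTSeq 0.6.1 and DESeq2, whose roles, gene annotation and strand setting are not given in the sources used here. Each library's FPKM, multiplied by gene length, were whole multiples of 1 step (within 0.01 for at least 99.8% of values), which gave the reads per gene. These equalled 63 of the 63 deposited read counts that were compared, all from MYO5B-knockout and LPA-treated mice. Reads recovered for control mice were not compared in this way. Columns with the authors' own fold changes, p-values and pathway terms were not used. No scaling between libraries is stated, and FPKM of a library depends on its other genes.

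The log2 of FPKM + 0.1 was fitted in limma 3.58.1 (R 4.3.3) for the 15729 genes whose mean reached 0.1 FPKM. All 10 mice entered 1 model of 3 groups with trend set for the variance, tests were two-sided, and p-values were adjusted over all genes tested (Benjamini-Hochberg). edgeR 4.0.16 (quasi-likelihood) and DESeq2 1.42.0 on the recovered reads, and fits without the libraries that stand apart, were added after seeing the data. The scripts were tested on simulated data. The members and gene lists were chosen with earlier results of these data known. Named were members past an adjusted p of 0.05, the 12 most abundant, the 6 with the largest fold change in each comparison and 22 of known role, 27 in all, and any other member named was chosen after its values were seen. P450 genes outside the rule were taken as symbols of Cyp and a number, because Cypt genes are not P450 genes, and Tbxas1 and Ptgis were added. Labels do not say that replicates came from separate litters or days, so p-values measure the spread between these mice. A gene of the list of PPAR alpha targets is not reported here, and counts of calls over that list are left out.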

Additional observations from a re-analysis of the deposited data

Results flagged for a closer look

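In the group of 4 MYO5B-knockout mice, mouse 3 stood apart for Cyp4f13 and Cyp2c68. Its Cyp4f13 level of 27.3 FPKM was the highest of the 4, with the other 3 between 16.4 and 17.3 FPKM, and its Cyp2c68 level of 1.06 FPKM was the lowest, with the other 3 between 4.78 and 5.48 FPKM. The gaps took 0.897 and 0.915 of the range, above Dixon's critical value for 4 samples. Such a gap arises by chance in about 1 of 20 groups, and 25 members were examined. This library is also 1 of the 2 with few genes detected and 1 of the 2 with Xist and no reads on Y genes. Without it the log2 fold changes between MYO5B-knockout and control mice were -1.84 for Cyp4f13 and -3.02 for Cyp2c68.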

How the results depend on the processing

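Over 1738 alternative values of the named members, 1528 kept their side of the threshold, 87 were weaker, 123 stronger and 0 reversed. The 1528 include 77 values that had not passed and changed sign. The number of members called between MYO5B-knockout and control mice, 4, was 9 under median-ratio scaling, 11 under quantile normalization, 27 with array weights, 14 without the 2 libraries with few genes, 14 without these and LPA-treated mouse 1, 8 in edgeR and 16 in DESeq2, and 1 when only these 2 groups were fitted. Leaving out each mouse gave 1 to 9. In LPA-treated against MYO5B-knockout mice array weights called 1 member, Cyp2b10, against 0. In LPA-treated against control mice the 6 called became 3 with a pseudocount of 0.01 FPKM, 10 under median-ratio scaling, 10 under quantile normalization, 2 with only these groups, 24 with array weights, 16 and 18 without the 2 and the 3 libraries, and 17 in DESeq2, and leaving out each mouse gave 1 to 11. Array weights gave control mouse 5 a weight of 12.1 and control mouse 2 and MYO5B-knockout mouse 3 weights of 0.104 and 0.102. The cause of these shifts was not tested. Shares of all genes called are not given here for scaling, normalization, array weights, pseudocounts, fits of 2 groups or fits without 1 mouse. Those counts are therefore not a result about the members alone. Between MYO5B-knockout and control mice the median of all genes moved from 0.29 to 0.039 under median-ratio scaling and the members' median from -0.80 to -1.06.

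A replicate block was fitted for mice 4 and 5 of the control and LPA-treated groups, whose shared numbers the labels do not tie to a litter or day, and it called 0 members. Members with few reads limit what can be seen: 1 read on 1 kb equals 0.0409 to 0.0913 FPKM, and Cyp2c55 alone passed in each of the 10 fits without 1 mouse in both comparisons with control mice.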

Other observations

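P450 genes outside the symbol rule were examined beside the members, and the difference between the lists was not tested. Of 28 such genes 9 were tested, 2 had negative log2 fold changes between MYO5B-knockout and control mice, against 36.6% of all genes, with a median of 1.00 for the 9 and 0.29 for all genes, and 0 passed in any comparison. Among the 9, Ptgis and Cyp2d37-ps had positive values but 0 reads in all control mice. Without the 2 libraries with few genes, 3 passed between MYO5B-knockout and control mice, all higher, against 2.56% of all genes called higher. Cyp51, the sterol demethylase of cholesterol synthesis, was at 86.6, 25.0 and 19.8 FPKM in controls and 116, 62.7, 48.1 and 44.5 FPKM in MYO5B knockouts, with control mouse 2 inside the knockout range (log2 fold change 0.84, limma adjusted p = 0.427, or 0.0360 if both libraries are left out). Cyp20a1 was at 0.937, 1.78 and 1.18 FPKM in controls and 3.08, 5.19, 5.35 and 4.13 FPKM in MYO5B knockouts, without overlap (log2 fold change 1.71, limma adjusted p = 0.0514). Cyp11b1, a steroid hydroxylase of the adrenal, was at 0, 0.0410 and 0 FPKM in controls and 0, 1.47, 1.45 and 1.18 FPKM in MYO5B knockouts, and 0.775, 0.913 and 0.877 FPKM with LPA. Cyp27a1, the sterol hydroxylase of bile acid synthesis, lay lower, at 7.32, 22.6 and 36.2 FPKM in controls and 1.88, 16.1, 5.97 and 4.83 FPKM in MYO5B knockouts (log2 fold change -1.71, limma adjusted p = 0.244).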
